A study of Ovis aries with 23 samples.

Results

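PT tissue of castrate (neutered) male Scottish blackface sheep was compared between SPs and LP day 28 by RNA sequencing. The comparison took in the 5 samples labelled as short photoperiod and the 6 labelled as day 28 of long photoperiod, 11 of the 23 samples of the series, and every gene with reads enough to be tested. SPs were 8 h of light and 16 h of dark for 12 weeks, and LPs were 16 h of light and 8 h of dark, given for 28 days after transfer from SPs. All animals were male, neutered and of the same breed, and ages were not given in the sources used here. The remaining 12 samples (6 each at LP days 1 and 7) were used only to place the values on a time scale. The labels do not say that each sample came from a separate animal, so p-values measure the spread between samples.

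The PT is a thin sheet of pituitary tissue around the stalk, next to the median eminence, and it carries the melatonin receptors through which day length acts on the pituitary and the hypothalamus. Its own thyrotrophs make thyrotropin, a dimer of the subunits TSHB and CGA, when days are long. The coactivator EYA3 acts with the transcription factor TEF on the TSHB promoter, and the thyrotropin released acts on tanycytes, where it changes the local activation of thyroid hormone that times reproduction.

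Each of the 11 samples held between 2190640 and 4413929 counts, with medians of 3231618 on SPs and 3039990.5 at LP day 28. Levels are given as CPM, counts scaled to library size, on which 3 counts made 0.680 to 1.37, which limits what can be said of genes near that level, and this limit covers counting error only. Thyrotropin subunit genes were read in every sample, but the pars distalis has thyrotrophs too, so they cannot check the PT label. CGA stood between 7301 and 10401 CPM in every sample, and TSHB between 47.0 and 1580 CPM. Genes of the neighbouring pars distalis were present in all samples too, and prolactin (PRL) took 2.77 to 21.0% of the counts. The 9 pars distalis marker genes tested summed to 35067 to 141059 CPM on SPs and to 74714 to 272816 CPM at LP day 28, and none of them was DE. Their part in the differences below was not tested, other than by a fit that held GH1, the growth hormone gene, as a covariate. It called 98 genes, 88 of them shared with the 100 given next. In tissue of mixed cells, fewer cells of a type and less RNA per cell cannot be told apart.

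LP day 28 differed from SPs in 100 of 14929 genes tested, 0.67% of them. DE means a false discovery rate (FDR) under 0.05 in edgeR's quasi-likelihood test, adjusted over all genes tested. Of these genes 63 were higher at LP day 28 (0.422% of genes tested) and 37 were lower (0.248%). Scaling by library size alone, in place of trimmed mean of M values (TMM) scaling, turned this split into 45 higher and 80 lower, though each of the 100 genes held its direction. The 2 sets differed in size of change and in level. At low counts only large changes can be called, and the part of this and of the filter in the split was not tested. Genes that rose did so by a median of 1.29 on the log2 scale, from 0.44 to 5.00, and 39 of 63 changed more than 2-fold and 20 more than 4-fold. Genes that fell did so by a median of 0.61, from 0.38 to 4.68, and only 8 of 37 changed more than 2-fold. The genes that fell were also the more abundant ones, at a median of 175 CPM over the 11 samples, against 42.8 CPM for those that rose and 22.5 CPM for all genes tested. In summed level, the 63 genes went from 2675 CPM on SPs to 6511 CPM at LP day 28, and the 37 genes from 18276 CPM to 11561 CPM.

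**Figure D1:**
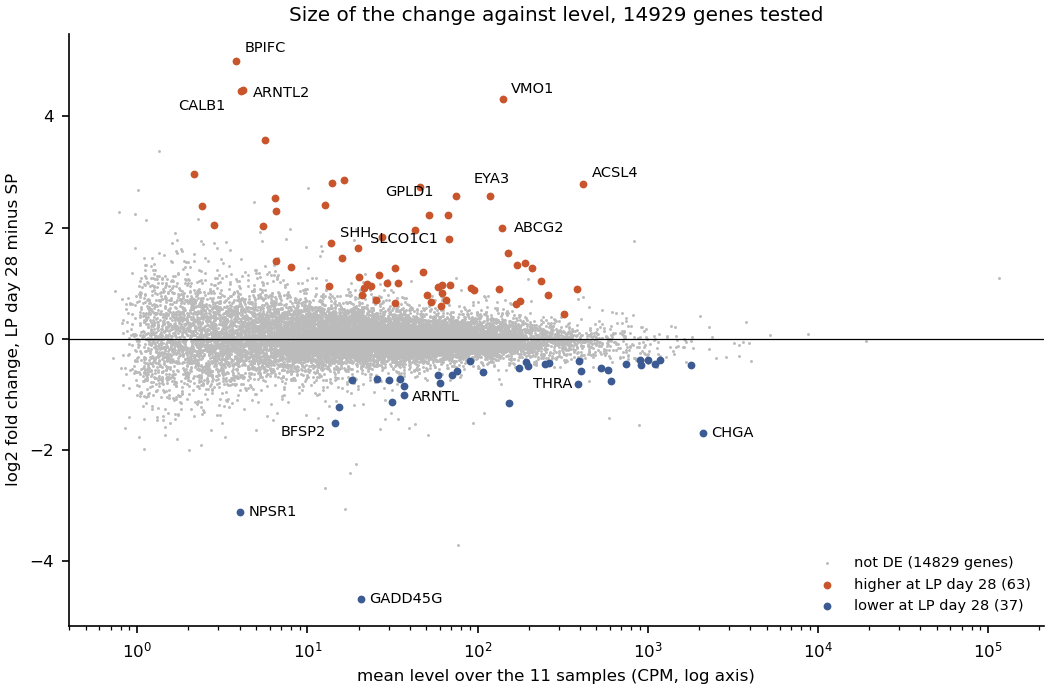
Log2 fold change (LP day 28 minus SP, vertical axis) against mean level over the 11 samples (CPM, log axis) for each of 14929 genes tested. Orange points are the 63 DE genes that were higher at LP day 28, blue points the 37 that were lower, and grey points the other genes. The rises reach 5.00 and lie mostly under 200 CPM, whereas most of the falls are small and lie at higher levels.

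For 50 of the 63 higher genes, every LP day 28 sample lay above every SP sample (1.11% of all genes tested did so), and for 25 of the 37 lower genes every LP day 28 sample lay below (0.871%, and 1.98% in either direction). Leaving out SP sample 2 brought the count of DE genes to 41, leaving out LP day 28 sample 6 to 46, and leaving out LP day 28 sample 1 or 3 to 58 each. Without any one sample, 36 of the 100 genes were DE in all 11 such fits, 28 of them higher and 8 lower. The count files carry Ensembl gene IDs, and symbols were known here only for genes that the study had listed as changed, partly on these same samples. Hence 73 of the 100 DE genes could be named, 54 of them higher and 19 lower, and 6.76% of the 1080 named genes tested were DE (5% higher, 1.76% lower), which is no independent evidence of their direction.

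Of the thyrotroph and photoperiodic relay genes, 18 were tested, of which 2 rose (EYA3 and SLCO1C1) and 1 fell (THRA). Their median log2 difference was 0.45, against -0.01 over all genes tested and 0.08 over named genes. EYA3 stood at 37.1, 23, 28.3, 36.0 and 35.0 CPM in SP samples 1 to 5, and at 407, 37.6, 123, 58.5, 471 and 46.8 CPM in LP day 28 samples 1 to 6. Every LP day 28 value was above every SP value, but the lowest of them was within 1 CPM of the highest SP value, and samples 1, 3 and 5 carried most of the rise. The log2 difference was 2.57 ± 0.57 (SE), with an edgeR FDR of 0.0481. The call was lost in 8 of the 11 fits that left out a sample, with an FDR of up to 0.142 without SP sample 2. Among these fits it was kept only without LP day 28 sample 2, 4 or 6. Of 20 other alternatives 9 kept it. It was lost with robust estimation (FDR 0.202) and in limma's voom with quality weights (FDR 0.222).

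TSHB stood at 207, 664, 47.0, 625 and 265 CPM on SPs and at 921 to 1580 CPM at LP day 28, with a median of 1204 CPM. The groups did not overlap, the 5 SP samples spread widely, and the log2 difference of 1.75 ± 0.41 missed the threshold (edgeR FDR 0.0615). It passed without SP sample 3 (FDR 0.0174), the sample at 47.0 CPM, and without SP sample 4 (FDR 0.0473). Of 20 other alternatives 8 called TSHB, among them DESeq2 (FDR 0.0420), edgeR's exact test (FDR 0.00559), limma's voom with quality weights (FDR 0.0235) and the fit with no filter on low counts (FDR 0.0259), whereas robust estimation gave an FDR of 0.223. Against LP day 1, where TSHB averaged 257 CPM, its level at LP day 28 was higher by 2.25 ± 0.18 (edgeR FDR 5.51e-07). CGA, the common alpha subunit, had a mean of 8384 CPM on SPs, against 8955 CPM at LP day 28 (log2 difference 0.09, FDR 0.694). TAC1, the substance P precursor, averaged 2.54 and 16.4 CPM and did not pass (FDR 0.0615). MTNR1A, the melatonin receptor, and TSHR, the thyrotropin receptor, varied more within the groups than between them, from 1.02 to 27.5 CPM and from 10.3 to 88.3 CPM.

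SLCO1C1 and THRA, the other DE genes of this list, act on the transport and sensing of thyroid hormone. SLCO1C1, which carries thyroxine into cells, stood at 29.1, 24.7, 23.7, 26.3 and 39.2 CPM on SPs and at 84.8 to 126 CPM at LP day 28, with a median of 97.7 CPM. The lowest LP day 28 sample was above 2 times the highest SP sample, and the log2 difference was 1.80 ± 0.14 (edgeR FDR 2.65e-06). THRA, the thyroid hormone receptor alpha, stood at 336, 330, 289, 295 and 292 CPM on SPs and at 212 to 250 CPM at LP day 28, again with no overlap. It fell by 0.44 ± 0.08 on the log2 scale (FDR 0.0169), and the call was lost without SP sample 2 (FDR 0.0588) or LP day 28 sample 6 (FDR 0.0523) and with SP samples 2, 3 and 5 only (FDR 0.0909). THRA overlaps the clock gene NR1D1 on the opposite strand, and strand-specific counting is not stated. Reads from the stretch that they share therefore cannot be told apart.

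**Figure D2:**
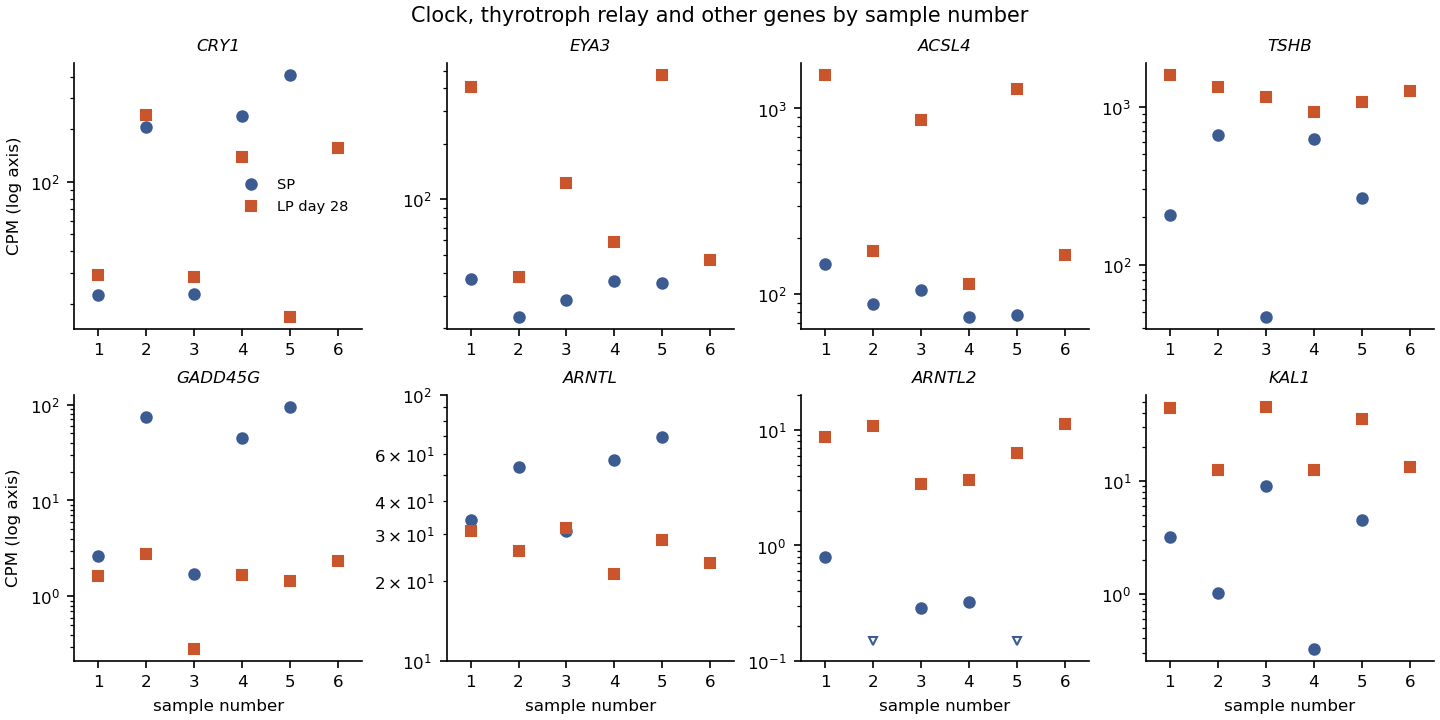
Level (CPM, log axes) of 8 genes in each sample, by the sample number in the labels, on SPs (blue circles, numbers 1 to 5) and at LP day 28 (orange squares, numbers 1 to 6). Open triangles mark samples with no reads, and the labels do not say what the order of the numbers stands for. CRY1 is at 16.9 to 29.3 CPM in 5 samples and at 138 to 406 CPM in the other 6, EYA3 and ACSL4 are highest in LP day 28 samples 1, 3 and 5, and GADD45G is above 40 CPM only in SP samples 2, 4 and 5.

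Clock genes were tested for 14 members, of which ARNTL2 rose and ARNTL fell. ARNTL and ARNTL2 are paralogues that can each pair with CLOCK to drive E-box genes. ARNTL2 was nearly silent on SPs, with 0.795, 0, 0.289, 0.324 and 0 CPM, or at most 3 reads in a sample, and stood at 3.41 to 11.3 CPM at LP day 28. The groups did not overlap, and the log2 difference was 4.47 ± 0.59 (edgeR FDR 0.000785). No SP sample was over 1 CPM, so ARNTL2 passed the filter on low counts through LP day 28 alone. Over the summed reads, 5 on SPs and 135 at LP day 28, LP day 28 was 23.2-fold higher per total count, with an exact 95% counting interval of 9.70 to 72.6. That interval covers counting error only and leaves out the spread between samples. ARNTL stood at 33.9, 53.8, 30.9, 57.0 and 69.4 CPM on SPs and at 21.2 to 31.6 CPM at LP day 28. It fell by 0.86 ± 0.19 on the log2 scale (FDR 0.0481), and the call was kept only without SP sample 1 or SP sample 3, reaching an FDR of 0.129 without SP sample 2. The median difference of the 14 clock genes was 0.44, against -0.01 over all genes tested and 0.08 over named genes. DBP and CIART, both clock-controlled genes, had differences of 0.69 and 1.79 that did not pass (FDR 0.249 and 0.112).

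CRY1, the cryptochrome that represses CLOCK and its partners, split both groups. It stood at 22.5 and 22.8 CPM in SP samples 1 and 3 and at 206, 237 and 406 CPM in SP samples 2, 4 and 5. At LP day 28 it stood at 29.3, 28.7 and 16.9 CPM in samples 1, 3 and 5 and at 242, 138 and 156 CPM in samples 2, 4 and 6. Between SPs and LP day 28 it was not DE (log2 difference -0.81 ± 0.67, FDR 0.638). Holding the CRY1 level as a covariate gave 137 DE genes, 94 of them shared with the 100 above. In that fit EYA3 (1.75, FDR 0.138), the lipid enzyme gene ACSL4 (1.90, FDR 0.0644) and ARNTL (-0.74, FDR 0.0736) no longer passed, whereas TSHB did (2.12, FDR 0.0295). Collection times of these samples were not given in the sources used here, and the part of time of day in the CRY1 levels was not tested.

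Genes of secretory granules and prohormone processing were tested for 12 members, of which VGF rose and CHGA and BAIAP3 fell. The median difference of the list was positive, at 0.30, against -0.01 over all genes tested and 0.08 over named genes. CHGA encodes chromogranin A, a granin that helps to form dense-core granules. It stood at 4292, 3632, 2629, 2776 and 3591 CPM on SPs and at 793 to 1391 CPM at LP day 28, with a median of 1005 CPM. The highest LP day 28 sample was well below the lowest SP sample, and CHGA fell by 1.69 ± 0.15 on the log2 scale (edgeR FDR 1.28e-05). It stayed DE in every alternative fit run.

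BAIAP3, a relative of the Munc13 proteins that prime dense-core vesicles, stood at 958, 891, 845, 708 and 524 CPM on SPs and at 409 to 544 CPM at LP day 28. Only SP sample 5 reached into the LP day 28 range, and BAIAP3 fell by 0.75 ± 0.13 (FDR 0.0113). VGF, another granin, moved the other way, from 126, 94.8, 96.1, 64.8 and 87.2 CPM to between 108 and 399 CPM, with a log2 difference of 1.33 ± 0.27 (FDR 0.0293). Its call was lost without SP sample 2, 3 or 4 or LP day 28 sample 1, with an FDR of up to 0.0815. CHGB, the abundant companion of CHGA, had group means of 3224 and 2578 CPM and did not pass (log2 difference -0.33, FDR 0.215), so of the 2 chromogranins only CHGA was DE. Whether their changes differ was not tested.

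Among the largest rises, BPIFC, ARNTL2 and CALB1 were close to silent on SPs, whereas VMO1 was not. These 3 genes passed the filter on low counts (over 1 CPM in at least 5 samples) only through the LP day 28 samples. A gene silent at LP day 28 would need all 5 SP samples over 1 CPM, so the filter favours such rises. VMO1, a secreted protein named after the vitelline membrane, had the lowest p of all genes tested. It stood at 15.1, 10.5, 15.6, 8.75 and 11.6 CPM on SPs and at 145 to 314 CPM at LP day 28, with a median of 272 CPM. No value of either group came near the other, and the log2 difference was 4.32 ± 0.23 (edgeR FDR 4.79e-09).

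BPIFC, of the family of bactericidal and lipid-binding proteins, stood at 0.265, 0, 0.577, 0 and 0 CPM on SPs and at 3.39 to 8.81 CPM at LP day 28. Its log2 difference was 5.00 ± 0.56 (FDR 1.60e-04). The summed reads, 3 against 130, gave a 37.2-fold higher level per total count, with an exact 95% counting interval of 12.5 to 183. That interval leaves out the spread between samples. CALB1, the calcium-binding protein calbindin, stood at 0, 0, 0.289, 0.648 and 0.564 CPM on SPs and at 1.37 to 13.9 CPM at LP day 28 (4.45 ± 0.73, FDR 0.00643). No SP sample had more than 2 reads of either gene, so their fitted differences rest on few counts.

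KLKB1, plasma prekallikrein, had no reads in 3 SP samples and 2.12 and 1.44 CPM in the other two, against 4.16 to 18.4 CPM at LP day 28 (3.57 ± 0.62, FDR 0.0104). PNLDC1, a ribonuclease that trims small RNAs, went from a mean of 0.411 CPM on SPs, with at most 2 reads in a sample, to 3.64 CPM (2.97 ± 0.58, FDR 0.0241). It was DE in only 4 of the 11 fits that left out a sample and fell under the filter on low counts in 5 of the others. Like BPIFC, PNLDC1 had no SP sample over 1 CPM and passed that filter through LP day 28 alone. SPRY3, an inhibitor of receptor tyrosine kinase signalling, went from 0.692 to 3.81 CPM (FDR 0.0308) and was not DE without SP sample 1, 2 or 4 or LP day 28 sample 1. TRYPTASE-1, a mast cell protease with near copies in the genome among which reads may be shared, went from 1.72 to 10.3 CPM (FDR 0.0231) and was not DE in 5 of the 11 fits.

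**Figure D3:**
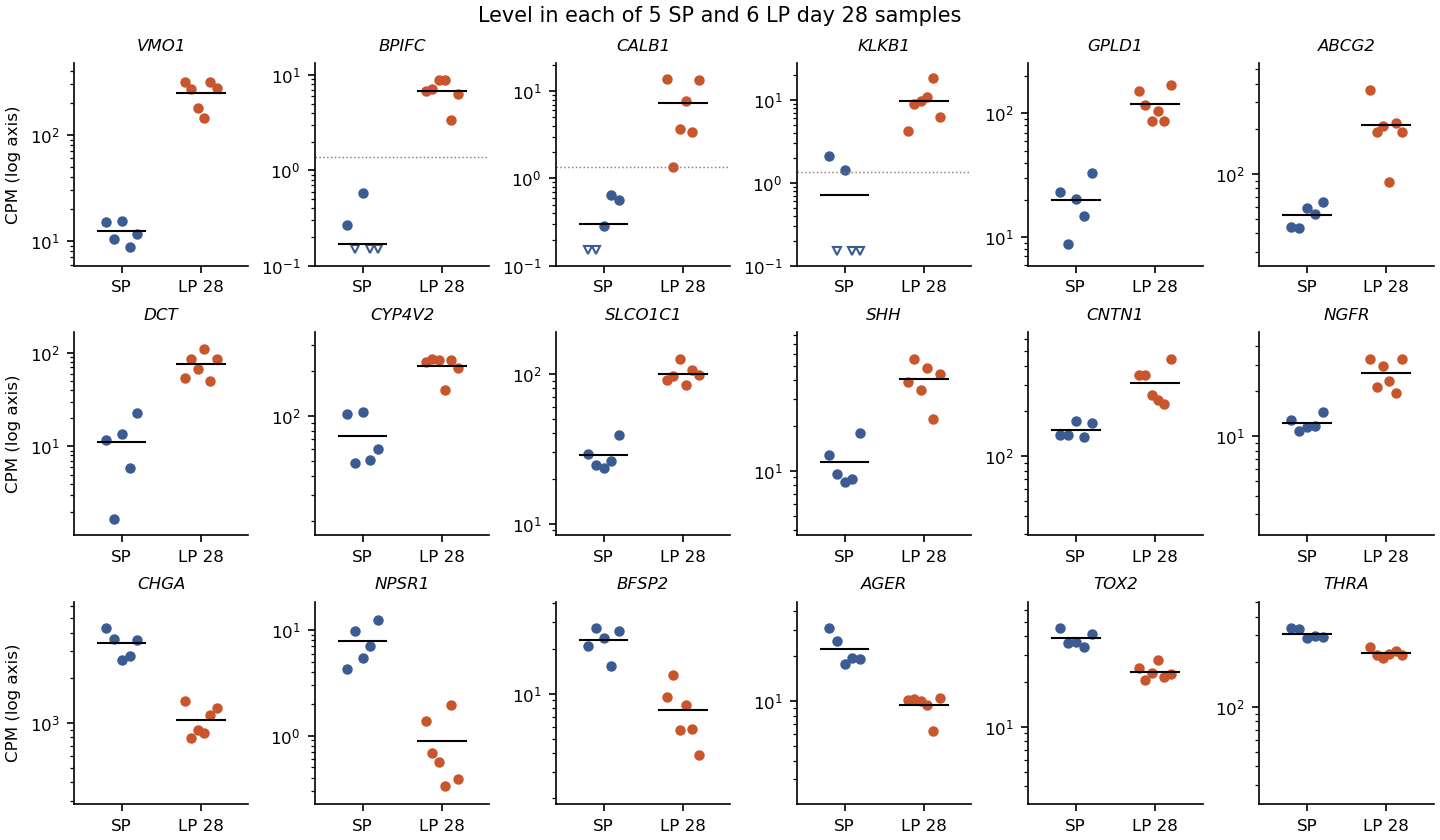
Level (CPM, log axes that differ between panels) of 18 DE genes in each of 5 SP samples (blue) and 6 LP day 28 samples (orange). Black lines are group means, open triangles are samples with no reads, and dotted lines mark the level of 3 counts in the shallowest sample (1.37 CPM). In each panel the groups do not overlap; VMO1 goes from a mean of 12.3 to 248 CPM and CHGA from 3384 to 1051 CPM.

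GPLD1, CYP4V2 and ABCG2 were read in every SP sample, at 8.80 CPM or more. GPLD1, the phospholipase D that cleaves glycosylphosphatidylinositol anchors, stood at 23, 8.80, 20.5, 14.9 and 32.7 CPM on SPs and at 87.0 to 170 CPM at LP day 28 (log2 difference 2.56 ± 0.25, edgeR FDR 3.63e-05). CYP4V2, a fatty acid hydroxylase, stood at 104, 48.4, 106, 51.2 and 60.4 CPM and then at 149 to 242 CPM (1.54 ± 0.20, FDR 0.000718). ABCG2, an efflux transporter, stood at 44.0, 43.7, 59.1, 53.8 and 64.3 CPM and then at 88.5 to 364 CPM (1.99 ± 0.24, FDR 0.000571). The 3 genes separated the groups completely and stayed DE without any one sample.

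ATP8B4, a phospholipid flippase, rose from a mean of 3.23 to one of 23 CPM (2.80 ± 0.41, FDR 0.00276). DCT, dopachrome tautomerase of the melanin pathway, stood at 11.7, 1.69, 13.6, 5.83 and 22.9 CPM on SPs and at 49.9 to 110 CPM at LP day 28 (2.72 ± 0.35, FDR 0.000718). EZH2, the histone methyltransferase of a Polycomb complex, was named after its values were seen. It averaged 17.2 CPM and 81.0 CPM, with no overlap (2.22 ± 0.29, FDR 0.000785).

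ACSL4, which links long polyunsaturated fatty acids to coenzyme A, rose unevenly across the LP day 28 samples. It stood at 146, 88.7, 105, 75.5 and 77.3 CPM on SPs, at 1509, 867 and 1280 CPM in LP day 28 samples 1, 3 and 5, and at 171, 113 and 163 CPM in LP day 28 samples 2, 4 and 6. The log2 difference was 2.79 ± 0.58 (FDR 0.0331). The call was kept only without SP sample 1 or LP day 28 sample 2, 4 or 6, and its FDR reached 0.0994 without SP sample 2. As for EYA3, the 3 high LP day 28 samples were those low in CRY1, and the part of that difference was not tested beyond the covariate fit above.

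SHH, the morphogen Sonic hedgehog, stood at 12.7, 9.48, 8.37, 8.75 and 17.8 CPM on SPs and at 22.3 to 55.8 CPM at LP day 28, with no overlap (log2 difference 1.83 ± 0.23, edgeR FDR 0.000718). It was the only one of 15 morphogen genes tested (of 124 listed) to be DE, and the median difference of those tested was 0.06. Of 14 axon guidance and neurite genes, KAL1 and NGFR rose and the median difference was 0.20. KAL1 encodes anosmin-1, a matrix protein that guides olfactory and gonadotropin-releasing hormone neurons. It stood at 3.18, 1.02, 8.94, 0.324 and 4.51 CPM on SPs and at 12.3 to 44.6 CPM at LP day 28, where samples 1, 3 and 5 were again the highest (2.87 ± 0.52, FDR 0.0131). KAL1 was not DE without SP sample 2 (FDR 0.0510) or with SP samples 2, 3 and 5 only (FDR 0.0763). Its call was also lost with robust estimation (FDR 0.0911) and in limma's voom with quality weights (FDR 0.083). NGFR, the low-affinity neurotrophin receptor, stood at 10.8 to 14.4 CPM on SPs and at 19.4 to 32.8 CPM at LP day 28 (1.12 ± 0.18, FDR 0.00592).

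Of 16 adhesion and junction genes tested, 3 rose and none fell, with a median difference of 0.19. All 3 encode axonal cell adhesion molecules of the immunoglobulin superfamily. CNTN1 stood at 139, 139, 172, 133 and 165 CPM on SPs and at 221 to 446 CPM at LP day 28 (1.05 ± 0.16, edgeR FDR 0.00359). CNTN2 went from a mean of 40.9 to 79.9 CPM (FDR 0.0104) and NFASC, neurofascin, from 61.5 to 117 CPM (FDR 0.0113). In none of the 3 did the groups overlap, and all stayed DE without any one sample. SPOCK2, a matrix proteoglycan, stood at 213 to 321 CPM on SPs and at 419 to 606 CPM at LP day 28 (0.90 ± 0.12, FDR 0.000718). ANGPTL7, a secreted angiopoietin-like protein, went from 3.82 to 20.1 CPM (FDR 0.00386), although LP day 28 sample 2, at 5.13 CPM, lay within the SP range.

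Among the 15 hormone, neuropeptide and receptor genes tested, ADM rose and NPSR1 fell, and the median difference was -0.35. ADM, the vasodilator peptide adrenomedullin, stood at 36.3, 47.7, 31.4, 60.6 and 42.0 CPM on SPs and at 58.0 to 92.4 CPM at LP day 28, with an overlap at SP sample 4 (0.83 ± 0.17, edgeR FDR 0.0304). It was not DE in 6 of the 11 fits that left out a sample, with an FDR of up to 0.0760 without LP day 28 sample 6. NPSR1, the neuropeptide S receptor, stood at 4.24, 9.82, 5.48, 7.13 and 12.4 CPM on SPs and at 0.336 to 1.94 CPM at LP day 28, where no sample had more than 6 reads. It fell by 3.11 ± 0.43 on the log2 scale (FDR 0.00133). Over the summed reads, 130 on SPs and 16 at LP day 28, the level on SPs was 9.46-fold higher per total count. The exact 95% counting interval was 5.61 to 17, which leaves out the spread between samples.

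GADD45G, a growth arrest and stress gene and the only DE member of 8 immediate early and stress genes (median difference 0.19), had the largest fall of all. It stood at 74.1, 45.0 and 93.4 CPM in SP samples 2, 4 and 5, at 2.65 and 1.73 CPM in SP samples 1 and 3, and at 0.284 to 2.74 CPM in all 6 LP day 28 samples. The groups therefore overlapped, and the 3 high samples were the SP samples high in CRY1, while the LP day 28 samples high in CRY1 showed no such level. It fell by 4.68 ± 0.83 (edgeR FDR 0.0118), and by 3.51 with the CRY1 level as a covariate (FDR 0.00127). The call held without any one sample but was lost with robust estimation (FDR 0.108), in limma's voom with quality weights (-3.59, FDR 0.307) and in the fit of sample numbers 1 to 3 (FDR 0.289).

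The other named falls were smaller and mostly even across samples. BFSP2, a filament protein known from the eye lens, stood at 20.7, 27.4, 23.7, 15.2 and 26.2 CPM on SPs and at 3.90 to 13.3 CPM at LP day 28 (-1.52 ± 0.25, edgeR FDR 0.00781). AGER, the receptor for advanced glycation end products, stood at 30.7, 25.1, 17.6, 19.4 and 19.2 CPM and then at 6.29 to 10.5 CPM (-1.24 ± 0.20, FDR 0.00505). TOX2, a transcription factor, went from a mean of 38.9 to 23.3 CPM (-0.74 ± 0.13, FDR 0.0113). In these 3 genes the groups did not overlap, and they stayed DE without any one sample.

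APOE, the lipid carrier of glia, stood at 516, 589, 600, 288 and 551 CPM on SPs and at 246 to 338 CPM at LP day 28 (-0.81 ± 0.15, FDR 0.0168), and only SP sample 4 lay in the LP day 28 range. It was not DE without SP sample 2 or LP day 28 sample 3 or 6, with an FDR of up to 0.0629. SSC5D, a soluble scavenger receptor, stood at 390, 145, 242, 217 and 101 CPM on SPs and at 66.7 to 126 CPM at LP day 28 (-1.16 ± 0.25, FDR 0.0421). It was DE in 3 of the 11 fits that left out a sample, SPEF2, a protein of cilia and flagella (-1.01, FDR 0.0356), in 4, and SEZ6L, a neuronal surface protein (-0.79, FDR 0.0331), in 4. These 3 calls thus rested on the full set of samples.

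Of the DE genes without a symbol, 9 rose and 18 fell. The 18 that fell were abundant, at a median of 463 CPM, and their median fall was 0.47. Each of these 18 was DE in only 1 to 8 of the 11 fits that left out a sample. The largest changes among genes without a symbol were in ENSOARG00000018841 (2.23 ± 0.34, edgeR FDR 0.00369) and ENSOARG00000006800 (1.29 ± 0.26, FDR 0.0308), which rose, and in ENSOARG00000002824 (-1.13 ± 0.24, FDR 0.0375) and ENSOARG00000021140 (-0.73 ± 0.15, FDR 0.0331), which fell. Only the first of these was DE in all 11 fits that left out a sample.

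Of the genes that the study singled out, 14 were tested here, of which KAL1, SHH and EYA3 rose and NPSR1 and CHGA fell. EYA3 and TSHB were candidates of the study from the outset, and the others were chosen by it partly on these samples. Among those that did not pass, PAQR6 had a log2 difference of -0.51 (edgeR FDR 0.287), C1orf110 of -1.51 (FDR 0.143) and SOX14 of -1.43 (FDR 0.182), with groups that overlapped in each. COL2A1 (0.39), WIF1 (0.26), SEMA3D (-0.16), NCAN (-0.32) and GPR56 (-0.37) had FDRs of 0.452 or more. The sign of the difference turned when a single sample was left out for WIF1 (-0.13 without LP day 28 sample 6), SEMA3D (0.12 without SP sample 5) and NCAN (0.05 without SP sample 3). DNAH8 was under 1 CPM in most samples and was not tested.

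The remaining lists held no DE gene. None of 24 extracellular matrix genes was DE, with a median difference of 0.13, and 8 had an unadjusted p under 0.05. COL5A2 and THBS1 came closest, with differences of 1.07 and 0.75 (edgeR FDR 0.0503 for both). None of 4 endoplasmic reticulum and Golgi genes was DE (median 0.34, 2 with an unadjusted p under 0.05), and none of 5 cell division genes was (median 0.89, 3 with an unadjusted p under 0.05). Of marker genes, none of 9 for pars distalis cells (median 0.00, 3 with an unadjusted p under 0.05), 5 for folliculostellate and glial cells (-0.23, 1), 5 for pericytes and fibroblasts (0.33, 3), 4 for neurons, tanycytes and oligodendrocytes (-0.04, 0) and 1 for immune cells (-0.17, 0) was DE. Markers of endothelial and red blood cells could not be paired with IDs and were not analysed here. The other lists were tested only in part. Those tested were 24 of 76 extracellular matrix genes listed, 4 of 73 of endoplasmic reticulum and Golgi and 5 of 48 of cell division. Of listed markers they were 9 of 11 for pars distalis, 5 of 15 for folliculostellate and 5 of 15 for pericyte lists. For the neuron and immune lists they were 4 of 25 and 1 of 17. Over all lists, 17 of 161 tested genes were DE, 10.6% of them (6.83% higher, 3.73% lower), and some genes stand on more than one list. The share was 0.67% over all genes tested (0.422% higher, 0.248% lower) and 6.76% over named genes (5% higher, 1.76% lower). A listed gene could be paired only if the study had listed it as changed. These counts, and those of single lists above, are therefore not read as a result about the lists.

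**Figure D4:**
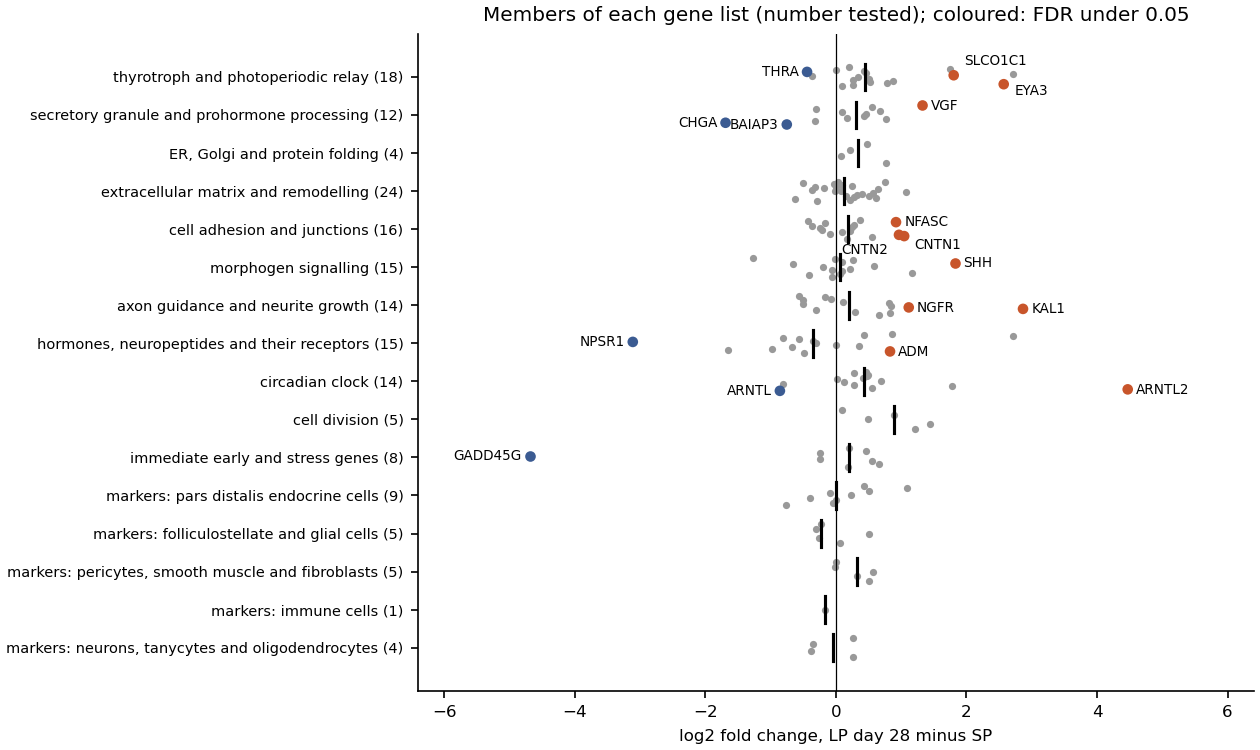
Log2 fold change (LP day 28 minus SP, horizontal axis) of each tested member of 16 gene lists, with the number tested in brackets. Orange and blue points are members that were higher or lower at an FDR under 0.05, grey points are the others, and black bars are list medians. Each list has at most 3 coloured members, and the bars lie between -0.35 and 0.89.

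The other LP days were used to place these levels on a time scale. Comparisons with LP day 1 and LP day 7 share the LP day 28 samples with the comparison above, so each is given by its own values. Of the 63 genes higher at LP day 28, group means rose at every step from SP through LP days 1, 7 and 28 for 45, and were highest at LP day 28 for 52 and at LP day 7 for the other 11. Of the 37 lower genes, means fell at every step for 28 and were lowest at LP day 28 for 34. The order of the first and last of these means was fixed by the choice of the genes. That choice also favours LP day 28 as the highest or lowest mean. Shares over all genes tested were not computed, so these counts are not read as a result about the genes. Against LP day 1, 32 of 14820 genes were DE by edgeR (0.216%, with 0.175% higher and 0.0405% lower). LP day 1 included a sample of only 307952 counts, in which 3 counts stand at 9.74 CPM. Against LP day 7, only DCT of 14890 genes was DE (0.00672%). At an unadjusted p under 0.05 there were 1061 genes, and DESeq2 called 37.

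VMO1 was highest at LP day 28, with means of 12.3 and 15.8 CPM on SPs and LP day 1, then 80.0 and 248 CPM on LP days 7 and 28. Its log2 difference between LP day 28 and LP day 1 was 4.05 (edgeR FDR 4.00e-08) and that between LP day 28 and LP day 7 was 1.64 (FDR 0.0632). GPLD1 passed through 29.5 and 64.6 CPM to 120 CPM, and CYP4V2 stood at 74.1, 74.3, 142 and 217 CPM. CHGA went down through 3384, 2766, 1534 and 1051 CPM, and its level at LP day 28 was below that at LP day 1 by 1.40 on the log2 scale (FDR 2.89e-04) and did not differ beyond the threshold from that at LP day 7 (-0.54, FDR 0.335). AGER had means of 22.4, 18.5, 9.76 and 9.44 CPM, and the log2 difference between LP days 28 and 7 was -0.02 ± 0.23 (SE).

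Some genes had a higher mean at LP day 7 than at LP day 28. DCT went from a mean of 236 CPM on LP day 7 to 75.4 CPM, a log2 difference of -1.64 (edgeR FDR 0.00160), and was still DE above SPs. SHH stood at 11.4, 39.7, 82.2 and 40.8 CPM, and its decline from LP day 7 did not pass (-1.0, FDR 0.0632). SLCO1C1 stood at 28.6, 69.0, 133 and 100 CPM and EYA3 at 31.9, 46.0, 299 and 191 CPM, with no call between LP days 7 and 28 (FDR 0.553 and 0.917).

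**Figure D5:**
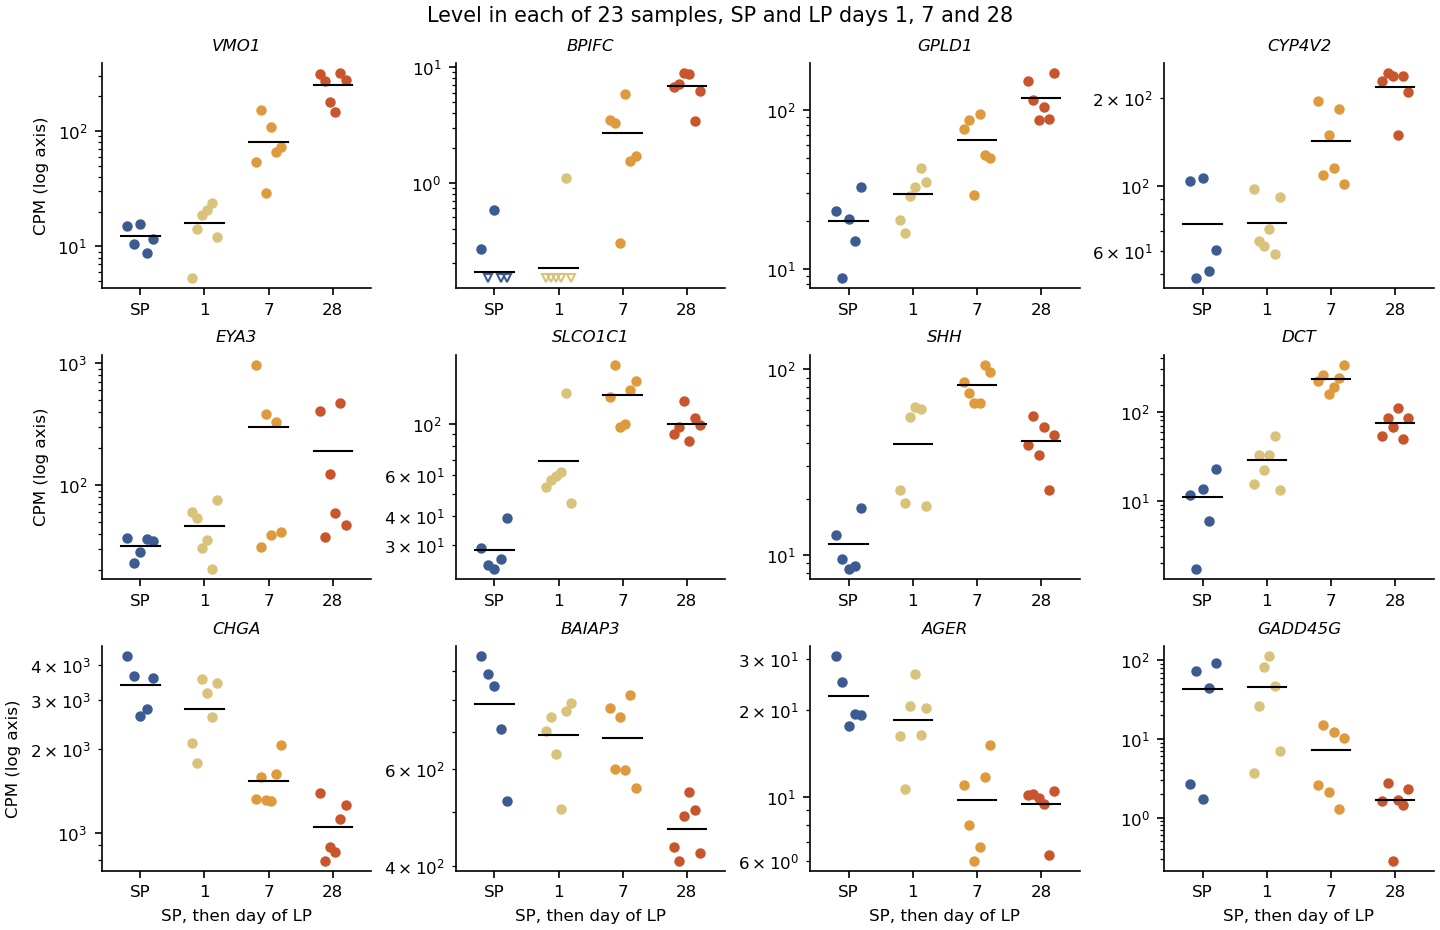
Level (CPM, log axes that differ between panels) of 12 genes in each of the 23 samples, on SPs and at LP days 1, 7 and 28. Black lines are group means and open triangles are samples with no reads. VMO1, BPIFC, GPLD1 and CYP4V2 are highest at LP day 28, DCT and SHH peak at LP day 7 (means of 236 and 82.2 CPM), and CHGA falls from a mean of 3384 to 1051 CPM.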

How the data were processed

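Total RNA of the PT was sequenced in 23 samples, grouped by their labels. The authors deposited a table of read counts per Ensembl gene for each sample, with no normalization. The submitters' processing notes name Bowtie, HTSeq and the sheep build Oar_v3.1, whereas the file headers have the form of another counting program. Versions, strand and collection times are not given in the sources used here. All 25197 genes were read as deposited.

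SPs (n = 5) were compared with LP day 28 (n = 6) by edgeR 4.0.16 in R 4.3.3, with TMM scaling, genes over 1 CPM in at least 5 samples and the quasi-likelihood test. Calls were made below an FDR of 0.05, adjusted by Benjamini-Hochberg over all genes tested. LP days were compared alike, with at least 6 samples over 1 CPM. The fit was tested on simulated data. CPM of single samples were scaled by TMM over all 23 samples. Alternatives changed the scaling, filter, test (DESeq2 1.42.0, limma 3.58.1), covariates and samples. No samples were identical.

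Named genes were the 15 largest rises and 12 largest falls among DE genes with a symbol and a mean of at least 2 CPM, DE members of the lists, genes named by the study, the 10 lowest p-values and at most 2 IDs without a symbol per direction. Other names were chosen after their values were seen. Members, lists and alternatives were chosen with earlier results of these data known. Symbols were paired through the study's supplementary tables, whose fold changes and p-values were not used. Promoter and protein sequences and gene positions were not analysed here.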

Additional observations from a re-analysis of the deposited data

Results flagged for a closer look

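Single samples stood apart from the rest of their group in 6 of 106 groups of values of named genes examined by Dixon's criterion, which chance alone meets in about 1 group in 20 (5%). LP day 28 sample 1 was highest for ATP8B4, at 50.8 CPM with the next sample at 23.2 CPM, and for SPRY3, at 7.62 CPM with the next at 3.87 CPM. LP day 28 sample 6 was highest for WIF1, at 213 CPM with the next at 91.5 CPM. LP day 28 sample 5 was lowest for AGER, at 6.29 CPM with the next at 9.42 CPM, LP day 28 sample 4 was lowest for CYP4V2, at 149 CPM with the next at 209 CPM, and SP sample 4 was lowest for APOE, at 288 CPM with the next at 516 CPM.

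The change at LP day 28 differed from that at LP day 1 by edgeR's quasi-likelihood test between these 2 LP days for 20 named genes. Over all genes, 32 of 14820 were DE in that test (0.216%). Most named genes were picked for a difference between SPs and the same LP day 28 samples, so the count of 20 is not independent of that choice. The log2 difference, LP day 28 minus LP day 1, was 4.84 for BPIFC, 4.05 for VMO1, 3.42 for ARNTL2, 3.21 for KLKB1, 2.88 for CALB1, 2.52 for ACSL4, 2.25 for TSHB, 2.10 for ATP8B4 and 2.06 for GPLD1. It was 1.86 for ENSOARG00000018841, 1.71 for ABCG2, 1.54 for CYP4V2, 1.43 for DCT, 0.79 for CNTN1 and 0.63 for SPOCK2. Among genes lower at LP day 28 it was -4.58 for GADD45G, -2.76 for NPSR1, -1.40 for CHGA, -1.01 for SSC5D and -0.57 for BAIAP3. Against LP day 7 the change differed for DCT alone, by -1.64.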

How the results depend on the processing

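The 100 DE genes (63 higher, 37 lower, 63.0% higher) held their direction in every alternative in which they were tested, while their number moved. It was 347 (201 higher, 146 lower) by DESeq2, 261 (168 and 93) by edgeR's exact test, 154 (101 and 53) with odd or even sample number as a covariate, 48 (34 and 14) with SP samples 2, 3 and 5 only, 22 (18 and 4) with sample numbers 1 to 3, 7 (5 and 2) with numbers 4 to 6, and 27 (23 and 4) at an FDR under 0.01. The fits by runs of sample numbers were chosen after seeing the data, since the file headers reuse folder names between them, and with the folder set as a covariate 78 of 80 calls were shared. Library size scaling called 80 lower genes (36.0% higher), and CRY1 alone or with GH1 as covariates 58 lower each. Leaving out a sample gave 41 to 110 DE genes, 29 to 67 higher and 8 to 53 lower. VMO1, CYP4V2, CHGA and SLCO1C1 were DE in all 31 alternative fits.

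Listed genes DE (17) numbered 29 by DESeq2, 28 by the exact test, 10 with SP samples 2, 3 and 5, 26 by odd or even number, 6 and 4 by runs of numbers, 7 at an FDR under 0.01, and 11 to 18 without a sample. LP day 28 against LP day 7 (1 gene) gave 37 by DESeq2, 10 by odd or even number and 1 to 5 without a sample, and against LP day 1 (32 genes) 63 by DESeq2 and 19 to 58 without a sample. Signs turned for SEMA3D (0.25 with numbers 1 to 3, and -0.33 to 0.12 without a sample), WIF1 (-0.11 with numbers 1 to 3, and -0.13 to 0.59) and NCAN (-0.60 to 0.051). DESeq2 gave no adjusted p for 8 named genes, among them BPIFC, ARNTL2 and NPSR1. The cause was not tested. In the replicate block fit, which treats equal sample numbers as pairs, 41 genes were DE (34 higher, 7 lower), and 6 between LP days 28 and 7. Deviations of equal numbers correlated at -0.19 to 0.04 and 0 of 5 SP samples correlated best with their own number, so the numbers are not taken as pairs. Genes near 3 counts are limited by depth.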
